A study of Homo sapiens with 12 samples.

Results

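Matrix metalloproteinases and the plasminogen activation system were followed here through 9 genes: the metalloproteinases MMP1, MMP2, MMP7, MMP9 and MMP14, their inhibitors TIMP1 and TIMP2, the urokinase gene PLAU and its receptor PLAUR. The genes were taken by name, and their transcript values were summed with GENCODE v44 symbols; all 9 were present among the 39099 genes so formed, and all 9 were among the 14767 genes tested. RNA was measured in 12 libraries of AsPC-1 and PANC-1 (ASPC1 and PANC1 in the labels), established human pancreatic cancer cell lines. Each line was compared as mock control cells, cells overexpressing TAp63 (TAp63 O/E) and cells overexpressing deltaNp63 (deltaNp63 O/E), with 2 replicates in each of the 6 groups. Both are forms of the transcription factor p63: TAp63 carries an amino-terminal transactivation domain that deltaNp63, transcribed from a promoter inside the TP63 gene, lacks. The vector, the time of expression and whether cells were pools or clones are not given in the sources used here, and nothing in them says that replicates came from separate cultures, so p-values measure only the spread between these libraries. All values are TPM, an abundance corrected for transcript length and scaled to the same total in every library, which allows levels of different genes to be compared but keeps no read depth. Differences were tested with limma on log2(TPM + 1), and a gene was called where its p-value, adjusted over all 14767 genes, was under 0.05.

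Matrix metalloproteinases are zinc-dependent proteases that cleave collagens, laminins and other matrix and surface proteins, and most are secreted as zymogens that another protease must open. Urokinase, encoded by PLAU, converts plasminogen to plasmin at the cell surface when bound to its receptor, and plasmin can in turn activate several metalloproteinases. TIMPs block the metalloproteinases, while members of the serpin family block urokinase. In pancreatic ductal cancer, MMP7 and the urokinase system are known as products of the tumour epithelium, and MMP2 is commonly ascribed to stromal or mesenchymal-like cells.

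The overexpression was visible in TP63 itself, which lay at 0.0245 to 1.10 TPM in the 4 mock libraries and at 102 to 1187 TPM in the 8 overexpressing libraries. All 5 ductal epithelial markers reached 1 TPM in both lines, but at different levels: EPCAM, an epithelial adhesion molecule, spanned 1256 to 1410 TPM in AsPC-1 and 42.6 to 49.5 TPM in PANC-1, and CDH1, encoding E-cadherin, spanned 81.8 to 123 and 2.37 to 3.74 TPM. Of the mesenchymal markers, VIM, encoding vimentin, spanned 2000 to 2361 TPM in AsPC-1 and 4291 to 4943 TPM in PANC-1, and the repressor ZEB1 11.8 to 18.1 and 20.5 to 27.6 TPM, so both were well above 1 TPM in each line. CDH2, encoding N-cadherin, was at most 0.0219 TPM in AsPC-1 and 19.5 to 22.4 TPM in PANC-1, while FN1, encoding fibronectin, was at most 0.482 and 1.10 TPM. Of 6 leukocyte markers, CD68 reached 1 TPM in both lines and LYZ in AsPC-1. CD68 spanned 90.8 to 126 TPM in AsPC-1 and 255 to 288 TPM in PANC-1, and LYZ 102 to 130 TPM in AsPC-1. PTPRC was at most 0.0102 TPM and the summed endothelial markers at most 0.278 TPM in any library. Of the fibroblast list, LUM reached 177 to 288 TPM in AsPC-1 and COL1A1 80.8 to 111 TPM in PANC-1, with the other markers of that list under 1 TPM in both lines. Of the 13 markers tested, 1 changed with a construct, CD68, which fell by 0.39 on the log2 scale with deltaNp63 in AsPC-1 (adjusted p = 0.0362, limma), where 7.14% of all tested genes were called. The deltaNp63 replicates of AsPC-1 stood further apart than those of any other group, with a median absolute log2 difference of 0.211 over the tested genes against 0.092 to 0.148 in the other groups. With deltaNp63 in AsPC-1, the share of all tested genes called was 27.5% without replicate 2 and 0.772% without replicate 1 of that group. Some results that rest on that pair are therefore also given with 1 or the other of its libraries left out.

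The lines held different sets of these genes at high levels. In AsPC-1 mock cells the order by mean was PLAUR (651 TPM ± 114, SD), PLAU (478 ± 77.5), MMP7 (432 ± 33.5), TIMP1 (300 ± 9.58), TIMP2 (236 ± 22.6), MMP14 (41.5 ± 0.777), MMP1 (4.24 ± 0.233), MMP9 (0.0302 ± 0.0171) and MMP2 (listed at 0), each from n = 2. Only PLAU and MMP7 overlapped among the neighbours in that order. In PANC-1 mock cells it was PLAU (614 TPM ± 67.6, SD), TIMP1 (279 ± 2.46), MMP2 (53.0 ± 1.43), TIMP2 (48.9 ± 0.538), PLAUR (37.1 ± 7.49), MMP14 (20.2 ± 1.08), MMP1 (4.49 ± 1.25), MMP7 (3.66 ± 0.343) and MMP9 (1.06 ± 0.117). There only MMP1 and MMP7 overlapped. Among the 14767 tested genes, PLAUR ranked 207 and MMP7 295 in AsPC-1 mock cells, against 4071 and 10720 in PANC-1 mock cells. PLAU ranked 270 and 219, so urokinase RNA was among the abundant transcripts of both lines.

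**Figure D1:**
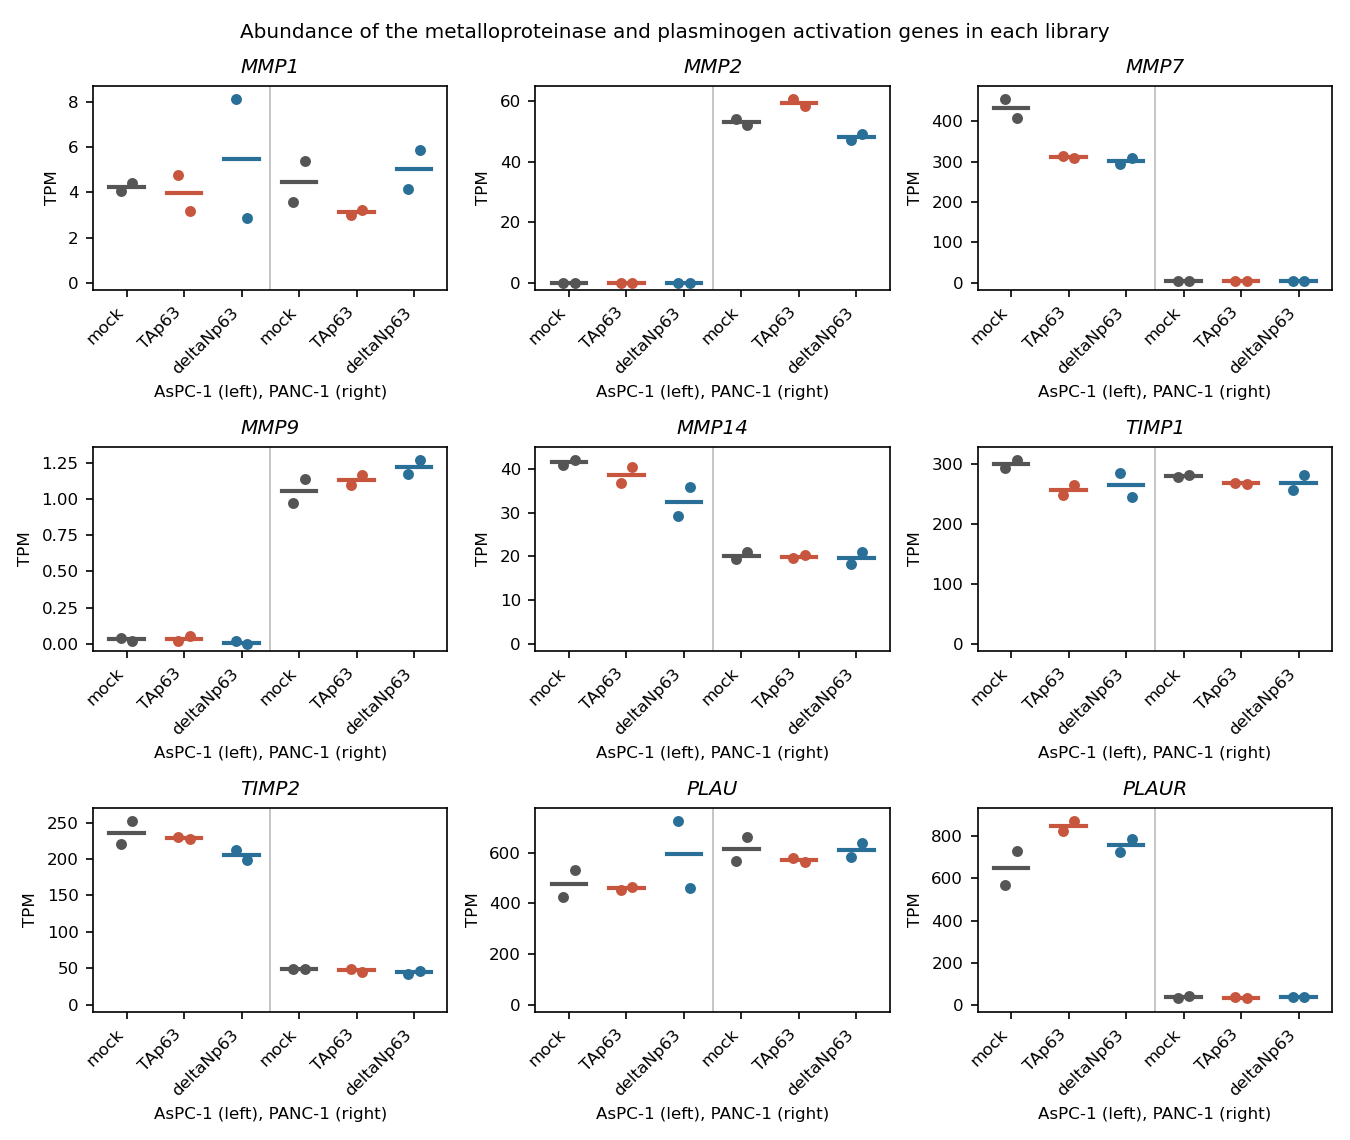
TPM of each of the 9 genes in each of the 12 libraries (points), with the mean of each group of 2 replicates as a bar; grey is mock, red TAp63 and blue deltaNp63, with AsPC-1 left and PANC-1 right of the dividing line. MMP7 lies between 294 and 456 TPM in AsPC-1, where the mock libraries are above all 4 overexpressing libraries, and at 3.41 to 4.36 TPM in PANC-1.

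MMP7, encoding matrilysin, a small secreted metalloproteinase made by epithelial cells, was the member that passed the test with a construct. It lies on chromosome 11 at 102520508 to 102530750 on the minus strand (GRCh38) and overlaps no other annotated gene. In AsPC-1, MMP7 stood at 456 and 408 TPM in mock cells, 314 and 309 TPM with TAp63, and 294 and 308 TPM with deltaNp63. Neither construct's libraries overlapped those of mock, and the libraries of the 2 constructs did not overlap each other by a margin of about 1 TPM. Such separation of 2 against 2 libraries was common. Of the 14767 tested genes, 6066 lay wholly below and 1632 wholly above mock with deltaNp63 in AsPC-1. With TAp63 these counts were 5230 and 1654. In PANC-1 it stood at 3.41 and 3.90 TPM in mock cells, 3.90 and 3.84 TPM with TAp63, and 4.36 and 4.31 TPM with deltaNp63. There the deltaNp63 libraries were above mock, as for 1591 of the 14767 tested genes, at a level far below any AsPC-1 library.

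With deltaNp63, MMP7 fell in AsPC-1 by 0.52 on the log2(TPM + 1) scale (SE 0.0885, 95% interval -0.72 to -0.32, adjusted p = 0.0179, limma with Benjamini-Hochberg adjustment). With TAp63 the change was -0.47 (SE 0.0885, 95% interval -0.67 to -0.27, adjusted p = 0.0558), just short of the threshold of 0.05. The estimates share the same mock libraries, and in RNA of whole cultures fewer expressing cells and less RNA per cell cannot be told apart. Over 22 alternatives the TAp63 change was -0.55 to -0.34, and it was called in only 3 of them. It was called among genes with a mean of at least 5 TPM (adjusted p = 0.0430, limma). The other calls came without AsPC-1 deltaNp63 replicate 1 or replicate 2, libraries outside this comparison, with the change still at -0.47. The direct difference between TAp63 and deltaNp63 was 0.05 (95% interval -0.15 to 0.25, adjusted p = 0.912). Most genes also shifted slightly downward in AsPC-1: the median change of the 14767 genes came to -0.119 for deltaNp63 and to -0.0765 for TAp63. MMP7 was 0.40 below that median with deltaNp63 and 0.39 below it with TAp63. Centring each library on its median, which shifts the changes of all genes by the same amount and moved the deltaNp63 median to 0.0884, gave an MMP7 change of -0.31 with deltaNp63 that was not called (adjusted p = 0.0756). The TAp63 change was then -0.34 and was not called either. Quantile normalization, after which the median change was 0 for both constructs, gave -0.55 with deltaNp63 (adjusted p = 0.0229) and -0.50 with TAp63 (adjusted p = 0.0600).

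In PANC-1 the change of MMP7 was 0.07 with TAp63 (95% interval -0.13 to 0.26, adjusted p = 1) and 0.20 with deltaNp63 (95% interval 0.00 to 0.40, adjusted p = 1). The difference between the lines in the deltaNp63 change, PANC-1 minus AsPC-1, was 0.72 (SE 0.125, 95% interval 0.44 to 1.00, adjusted p = 0.0399). For TAp63 it was 0.53 (95% interval 0.25 to 0.81, adjusted p = 0.239). Since MMP7 stands near 4 TPM in PANC-1, log2(TPM + 1) understates its changes there. The calls rest on few libraries. Without AsPC-1 mock replicate 1 the deltaNp63 change in AsPC-1 was -0.44 (adjusted p = 0.135), and without AsPC-1 deltaNp63 replicate 1 it was -0.48 (adjusted p = 0.0895). Fitted on the 2 groups alone it kept its size with an adjusted p of 0.363 (limma), where 0 of the 14767 tested genes were called. On the 6 AsPC-1 libraries it kept its size with an adjusted p of 0.188, where 8 genes were called, against 1055 in the main fit. The difference between the lines lost its call when any 1 library other than AsPC-1 deltaNp63 replicate 2 was left out (adjusted p = 0.0709 to 0.197), and it was called without that library (0.75, adjusted p = 0.0107).

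The promoter of MMP7 is shown because MMP7 is the member that passed the test with a construct, and that of PLAUR because PLAUR is the other member more than 10 times as abundant in AsPC-1. Each run is the 250 bases before the RefSeq start (GRCh38.p14), read 5′ to 3′ on the gene's strand. They lie at chr11:102530748-102530997 for MMP7 and chr19:43670170-43670419 for PLAUR, both on the minus strand. Capitals mark matches to the AP-1 motif TGANTCA and to the PEA3 motif AGGAAG, a core bound by ETS factors, searched on both strands.
MMP7: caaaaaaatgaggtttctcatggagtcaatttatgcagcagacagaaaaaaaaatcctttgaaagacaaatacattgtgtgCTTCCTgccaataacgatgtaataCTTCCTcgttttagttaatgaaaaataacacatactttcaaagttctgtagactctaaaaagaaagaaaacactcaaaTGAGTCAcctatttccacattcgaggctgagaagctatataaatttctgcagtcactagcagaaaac
PLAUR: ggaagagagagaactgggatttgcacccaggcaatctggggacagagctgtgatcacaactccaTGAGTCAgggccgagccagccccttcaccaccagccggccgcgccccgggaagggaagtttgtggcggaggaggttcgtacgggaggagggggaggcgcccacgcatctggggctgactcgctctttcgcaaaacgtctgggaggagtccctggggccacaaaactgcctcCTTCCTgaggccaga

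The MMP7 window holds 1 AP-1 match at -67 to -61 from the start and 2 PEA3 matches at -169 to -164 and -145 to -140. The PLAUR window holds 1 AP-1 match at -186 to -180 and 1 PEA3 match at -15 to -10. None of the matches overlap. Of 34943 RefSeq windows of the same length, 6.59% hold the AP-1 motif and 28.7% the PEA3 motif. RefSeq windows were at hand for 5 of the 9 members: MMP14 has neither motif in its window, TIMP1 has 1 PEA3 match at -87 to -82, and PLAU has 1 at -221 to -216 in 1 of its 2 windows. A match describes these letters only.

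MMP1, interstitial collagenase (chromosome 11, 102789401 to 102798160, minus strand), was low in every library. It stood at 4.08 and 4.41 TPM in AsPC-1 mock cells, 4.79 and 3.20 with TAp63, and 8.14 and 2.86 with deltaNp63. In PANC-1 it stood at 3.60 and 5.37 TPM in mock cells, 3.01 and 3.24 with TAp63, and 4.17 and 5.88 with deltaNp63. The AsPC-1 deltaNp63 libraries lie on either side of mock. The deltaNp63 change in AsPC-1 was 0.18 (adjusted p = 0.792), -0.44 without AsPC-1 deltaNp63 replicate 1, and 0.80 without replicate 2 (adjusted p = 0.0467, limma).

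MMP7 and MMP1 are both part of the metalloproteinase gene cluster on chromosome 11, which in GENCODE v44 holds 9 MMP genes between 102520508 and 102955732. Of the 8 that the table lists, MMP7 and MMP1 were the 2 above 1 TPM in any library. MMP3, encoding stromelysin-1, was at most 0.0229 TPM and MMP10, encoding stromelysin-2, at most 0.753 TPM. Summed over all 21 MMP genes in the table, metalloproteinase RNA came to 349 to 535 TPM in AsPC-1 libraries, of which MMP7 made up 80.0% to 85.1%. In PANC-1 the sum was 118 to 133 TPM, of which MMP2 made up 39.2% to 45.7% and MMP7 2.73% to 3.70%.

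The gelatinases MMP2 and MMP9, which cleave type IV collagen and denatured collagens, were found mainly in PANC-1. MMP2 (chromosome 16, 55389700 to 55506691, plus strand) was listed at 0 in all 6 AsPC-1 libraries. In PANC-1 it stood at 54.0 and 52.0 TPM in mock cells, 60.8 and 58.3 with TAp63, and 47.1 and 49.3 with deltaNp63. The PANC-1 groups did not overlap, with TAp63 highest and deltaNp63 lowest. Of the 14767 tested genes, 3245 lay wholly above mock with TAp63 and 2408 wholly below it with deltaNp63 in PANC-1. The change of MMP2 was 0.16 with TAp63 (95% interval -0.05 to 0.38, adjusted p = 1) and -0.13 with deltaNp63 (95% interval -0.35 to 0.08, adjusted p = 1). TAp63 against deltaNp63 gave 0.30 (95% interval 0.08 to 0.51, unadjusted p = 0.0115, adjusted p = 1). MMP9 (chromosome 20, 46008908 to 46016561, plus strand) was at most 0.0545 TPM in AsPC-1 and between 0.975 and 1.27 TPM in PANC-1, at the edge of the low-value filter. Both genes passed that filter through their PANC-1 libraries alone, so the filter itself favoured a difference between the lines.

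MMP14, encoding the membrane-anchored MT1-MMP that activates the MMP2 zymogen together with TIMP2, was present in both lines. It lies on chromosome 14 at 22836560 to 22849041 on the plus strand. In AsPC-1 it stood at 40.9 and 42.0 TPM in mock cells, 36.8 and 40.4 with TAp63, and 29.1 and 35.7 with deltaNp63. Every overexpressing library was below both mock libraries, a separation that 5230 of the 14767 tested genes showed with TAp63 and 6066 with deltaNp63. In PANC-1 it spanned 18.3 to 20.9 TPM with all groups overlapping. The deltaNp63 change in AsPC-1 was -0.35 (95% interval -0.61 to -0.09, adjusted p = 0.0799, limma). Without AsPC-1 deltaNp63 replicate 2, which leaves the lower library of that pair at 29.1 TPM, it was -0.50.

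The inhibitor TIMP1 (chromosome X, 47582408 to 47586789, plus strand) was at a similar level in both lines. In AsPC-1 it stood at 293 and 307 TPM in mock cells, 248 and 264 with TAp63, and 285 and 245 with deltaNp63. All 4 overexpressing libraries were below both mock libraries, as for 5230 of the 14767 tested genes with TAp63 and 6066 with deltaNp63. In PANC-1 it spanned 256 to 281 TPM. The TAp63 change in AsPC-1 was -0.23 (unadjusted p = 0.0243, adjusted p = 0.253) and the deltaNp63 change was -0.18 (adjusted p = 0.182). TIMP2 (chromosome 17, 78852977 to 78925387, minus strand), which both inhibits MMP2 and docks it on MT1-MMP, stood in AsPC-1 at 220 and 252 TPM in mock cells, 230 and 228 with TAp63, and 212 and 198 with deltaNp63. In PANC-1 it spanned 42.8 to 49.3 TPM. The deltaNp63 change in AsPC-1 was -0.20 (adjusted p = 0.166). The deltaNp63 changes of TIMP1 and TIMP2 were close to the median change of all genes, -0.119. Median centring, which shifts all genes alike, put them at 0.02 and 0.01, and after quantile normalization both were -0.19.

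PLAU (chromosome 10, 73909177 to 73917496, plus strand) stood at 423 and 533 TPM in AsPC-1 mock cells, 454 and 466 with TAp63, and 725 and 461 with deltaNp63. In PANC-1 it spanned 563 to 662 TPM with the libraries of both constructs overlapping mock. The AsPC-1 deltaNp63 change was 0.28 (95% interval -0.13 to 0.69, adjusted p = 0.340) and rested on 1 library: it was -0.04 without AsPC-1 deltaNp63 replicate 1 and 0.61 without replicate 2 (adjusted p = 0.0121, limma). Replicate 1 also held the highest MMP1 value, and it differed from replicate 2 in some epithelial genes, picked after their values were seen. KRT8 stood at 2034 against 3609 TPM, KRT18 at 1682 against 2509 TPM, and ST14, encoding matriptase, at 60.0 against 102 TPM. Of the other ductal epithelial markers, EPCAM spanned 1256 to 1410, KRT19 1908 to 2681 and CDH1 81.8 to 123 TPM over the AsPC-1 libraries. The part of the differences between these replicates in the PLAU and MMP1 values was not tested. Over the 12 libraries, after removing the mean of each line, PLAU and MMP1 had a Pearson r of 0.799 on log2(TPM + 1), the highest among the 9 genes, in points that share libraries and include that library.

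PLAUR (chromosome 19, 43646095 to 43670547, minus strand), the receptor that holds urokinase at the cell surface, stood at 570 and 731 TPM in AsPC-1 mock cells, 825 and 873 with TAp63, and 726 and 788 with deltaNp63. The TAp63 libraries were above both mock libraries, as for 1654 of the 14767 tested genes, and the deltaNp63 libraries overlapped mock. In PANC-1 PLAUR spanned 31.3 to 42.4 TPM, with the mock libraries holding nearly that whole range. The AsPC-1 change was 0.39 with TAp63 (95% interval 0.06 to 0.73, unadjusted p = 0.0241, adjusted p = 0.253) and 0.23 with deltaNp63 (adjusted p = 0.341). The difference between the lines in the TAp63 change was -0.53 (95% interval -0.99 to -0.06, adjusted p = 0.452). The ratio of PLAUR to PLAU TPM was 1.00 to 1.87 in AsPC-1 libraries and 0.0557 to 0.0641 in PANC-1 libraries.

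**Figure D2:**
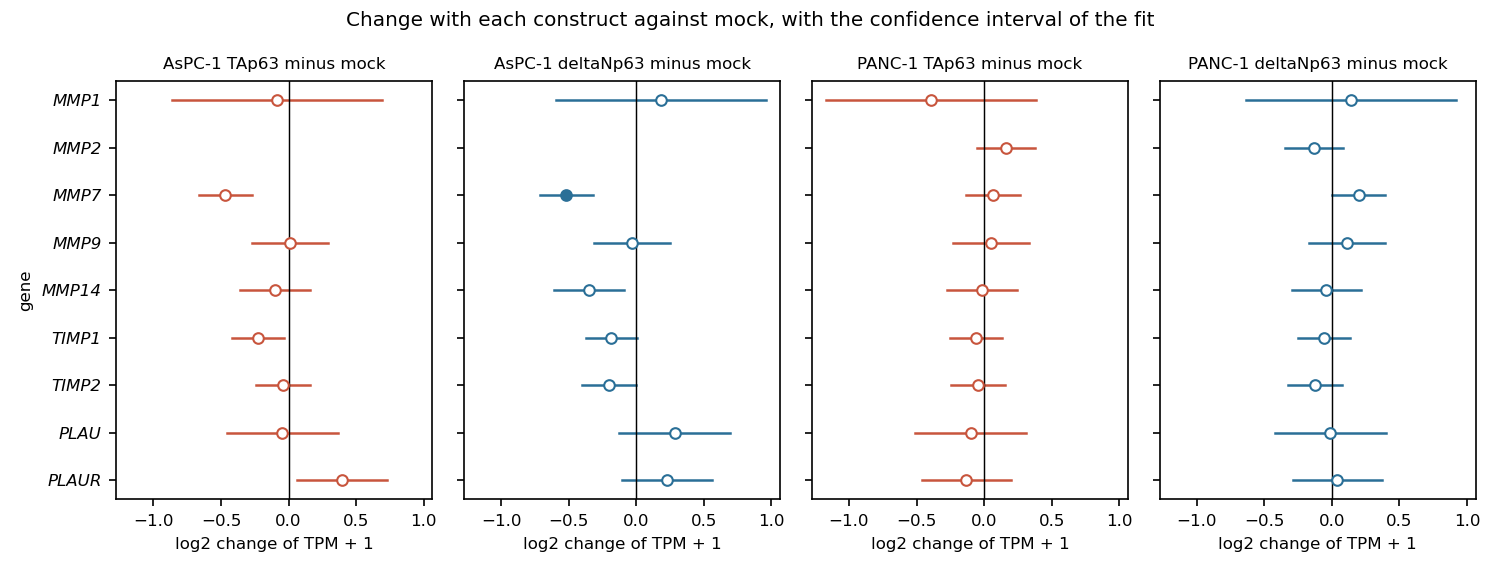
Change of each gene with a construct against mock, as log2 of TPM + 1 on the horizontal axis, with the limma estimate as a point and its 95% interval as a line; filled points have an adjusted p under 0.05. MMP7 with deltaNp63 in AsPC-1, at -0.52, is the filled point among the 4 comparisons, and MMP2 has no entry for AsPC-1, where it is listed at 0.

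Counted over the 9 genes, 0 changed with TAp63 in AsPC-1 (limma, 3 at an unadjusted p under 0.05), where 0.637% of the tested genes were called and 15.1% had an unadjusted p under 0.05. With deltaNp63 in AsPC-1, 1 of 9 fell and 0 rose (3 unadjusted), where 7.14% were called, 94 higher and 961 lower, and 29.7% had an unadjusted p under 0.05. After median centring that split was 249 higher and 170 lower, and for TAp63 the split of 4 higher and 90 lower became 11 and 63. The median of the 9 was -0.0451 with TAp63 and -0.0305 with deltaNp63, each including MMP2 at 0. TAp63 against deltaNp63 in AsPC-1 gave 0 of 9, with 0.0203% of tested genes called (0 unadjusted, beside 7.92%). In PANC-1 the counts called were 0 with TAp63, 0 with deltaNp63 and 0 between the constructs, beside 0.00677%, 0.0406% and 0.0271% of tested genes. At an unadjusted p under 0.05 they were 0, 1 and 1, beside 3.41%, 2.34% and 2.96%. For the difference between the lines, 0 of 9 passed for TAp63 and 1 of 9, MMP7, for deltaNp63. The shares of tested genes called were 0.0745% and 0.582%. At an unadjusted p under 0.05 there were 2 and 1 of the 9, beside 10.4% and 16.5%. Leaving out MMP1 and MMP7, the 95% intervals in PANC-1 lay within -0.51 to 0.38 for TAp63 and -0.42 to 0.40 for deltaNp63. The intervals of MMP1 in PANC-1 were wider, at -1.17 to 0.39 for TAp63 and -0.64 to 0.92 for deltaNp63. Leaving out AsPC-1 deltaNp63 replicate 2, 4 of 9 were called with deltaNp63 in AsPC-1 (MMP1 and PLAU higher, MMP7 and MMP14 lower), where the calls over all tested genes rose from 1055 to 4057, or 27.5%. Leaving out replicate 1, 0 of 9 were called, with 0.772% over all tested genes.

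The difference between the mock cells of the lines was of another size. Of the 9 genes, 6 were called, where 72.5% of all tested genes were called, so the count itself is near the background. Of these, MMP2 and MMP9 reached the low-value filter through PANC-1 alone, as did 1914 tested genes, of which 84.3% were called. The filter thus favoured a difference, and both genes are described by their levels, with no test. Of the other 7 members, 4 were called, beside 70.2% of the 11604 genes that reached the filter in both lines. Their median log2 difference was -1.01, beside 0.196 over those 11604 genes. MMP7 was 118 times, PLAUR 17.5 times, TIMP2 4.84 times and MMP14 2.06 times as abundant in AsPC-1 by the ratio of mock means. On the log2 scale, PANC-1 minus AsPC-1, these were -6.54 for MMP7 (adjusted p = 1.43e-11), -4.10 for PLAUR (adjusted p = 3.61e-09), -2.25 for TIMP2 (adjusted p = 7.27e-09) and -1.01 for MMP14 (adjusted p = 2.26e-05). PLAU differed by 0.37 (95% interval -0.05 to 0.78, adjusted p = 0.0978), TIMP1 by -0.10 (95% interval -0.29 to 0.09, adjusted p = 0.302) and MMP1 by 0.05 (95% interval -0.73 to 0.82, adjusted p = 0.911). TIMP1 was called after median centring (-0.28, adjusted p = 0.0266), and PLAU was called without AsPC-1 deltaNp63 replicate 1 or replicate 2 (adjusted p = 0.0146 and 0.0145), at the same difference of 0.37.

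**Figure D3:**
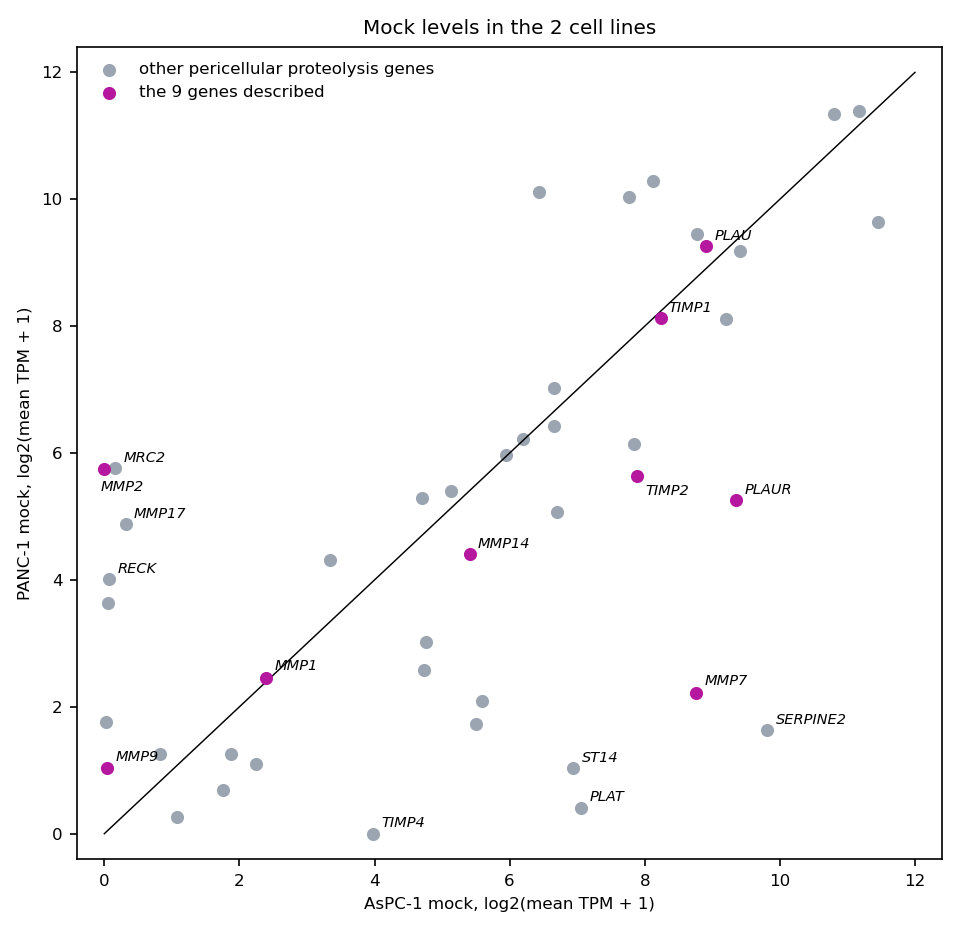
Mean TPM of mock cells as log2(TPM + 1), AsPC-1 on the horizontal and PANC-1 on the vertical axis, for the 9 genes (magenta) and 36 other genes of pericellular proteolysis (grey), with the line of equal levels. MMP7 and PLAUR lie below the line with SERPINE2, PLAT and ST14, MMP2 lies above it with MRC2 and MMP17, and PLAU, TIMP1 and MMP1 lie near it.

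The wider pathway was followed in a list of 56 further genes, holding the other MMPs, MMP inhibitors, plasminogen system genes, serpins, and proteases and partners linked to them; 54 were in the table and 36 passed the low-value filter. Of these 36, 10 reached the filter through 1 line alone, so that the filter itself favoured a difference between the lines. Of the 26 that reached it in both lines, 23 differed between the mock cells, 10 higher and 13 lower in PANC-1, beside 70.2% of all genes of that kind. The median of the 26 was -0.233, beside 0.196 over all genes of that kind. SERPINE2, encoding protease nexin-1, an inhibitor of urokinase and thrombin, stood at 870 and 929 TPM in AsPC-1 mock cells and 2.06 and 2.12 TPM in PANC-1 mock cells (log2 difference -8.19, adjusted p = 8.95e-12). ST14 was also lower in PANC-1 (-5.91). The next 5 genes are among the 10 that reached the filter through 1 line alone, and their levels are given with no test. PLAT, encoding tissue plasminogen activator, stood at 128 and 138 TPM in AsPC-1 and 0.370 and 0.288 TPM in PANC-1 mock cells. The collagen-uptake receptor MRC2 spanned 49.8 to 59.9 TPM in PANC-1 and was at most 0.165 TPM in AsPC-1. The membrane-anchored MMP17 stood at 28.2 and 28.9 TPM in PANC-1 mock cells and was at most 0.276 TPM in AsPC-1. Among the MMP inhibitors, TIMP4 had a mean of 14.8 TPM in AsPC-1 mock cells and was listed at 0 in PANC-1 mock cells. The membrane-anchored inhibitor RECK spanned 13.5 to 16.5 TPM in PANC-1 and was at most 0.290 TPM in AsPC-1. TIMP3 was at most 0.123 TPM and SERPINB2, encoding PAI-2, at most 0.0858 TPM. The 4 TIMPs summed to 460 to 573 TPM in AsPC-1 and 299 to 329 TPM in PANC-1.

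With deltaNp63 in AsPC-1, 3 of the 36 fell and 0 rose, beside 7.14% of all tested genes called, most of them lower. At an unadjusted p under 0.05 there were 10 of the 36, beside 29.7% of all tested genes. Both counts are near the background. FURIN, a proprotein convertase that activates MT1-MMP, stood at 23.6 and 26.3 TPM in mock cells and 18.3 and 17.6 TPM with deltaNp63 (fell by 0.45, adjusted p = 0.0390). CTSL, encoding the lysosomal protease cathepsin L, stood at 67.0 and 78.5 against 56.7 and 48.5 TPM (fell by 0.46, adjusted p = 0.0410). HPSE, encoding heparanase, which cuts heparan sulfate, stood at 25.3 and 26.1 against 19.2 and 17.1 TPM (fell by 0.48, adjusted p = 0.0468). The groups of each did not overlap, and 6066 of the 14767 tested genes were likewise wholly below mock. These calls sit at the threshold: leaving out any 1 library ended those of CTSL and HPSE, and for FURIN the call held for 3 of the 12 libraries left out. The other comparisons of constructs gave 0 of 36 by limma. At an unadjusted p under 0.05 there were 4 of the 36 for TAp63 in AsPC-1, beside 15.1% of all tested genes. For TAp63 against deltaNp63 in AsPC-1 there were 5, beside 7.92%. In PANC-1 there were 1 for TAp63 (beside 3.41%), 0 for deltaNp63 (2.34%) and 1 between the constructs (2.96%). The differences between the lines gave 6 for TAp63 (beside 10.4%) and 7 for deltaNp63 (16.5%). The median of the 36 with deltaNp63 in AsPC-1 was -0.106, beside -0.119 over all tested genes.

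A second list held 26 transcription factors known to act on MMP and plasminogen activator promoters, of which 25 were tested. With deltaNp63 in AsPC-1, 1 of the 25 fell and 1 rose, beside 7.14% of all tested genes called, and 6 had an unadjusted p under 0.05, beside 29.7%. Both counts are near the background. ETV4, the ETS factor also called PEA3, stood at 41.9 and 40.3 TPM in mock cells, 29.3 and 36.6 with TAp63, and 22.8 and 30.3 with deltaNp63 (fell by 0.62, adjusted p = 0.0440). SNAI2, encoding the zinc-finger repressor SLUG, stood at 206 and 283 TPM in mock cells, 379 and 341 with TAp63, and 496 and 332 with deltaNp63 (rose by 0.75, adjusted p = 0.0495). In PANC-1 ETV4 spanned 19.5 to 23.7 TPM and SNAI2 0.497 to 0.820 TPM. Leaving out libraries 1 at a time, the ETV4 call held for 3 of 12 and the SNAI2 call for 1 of 12, both including AsPC-1 deltaNp63 replicate 2. Of the 22 that reached the filter in both lines, 18 differed between the mock cells, 4 higher and 14 lower in PANC-1, beside 70.2% of all such genes. The median of the 25 with deltaNp63 in AsPC-1 was -0.0797.

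Of the genes whose profile was most like that of MMP7, ranked over 13458 genes by Pearson r across the 12 libraries after removing the mean of each line, the first were PRR15 (r = 0.956) and ST3GAL5 (r = 0.950). PRR15 had means of 60.2, 41.2 and 36.2 TPM in AsPC-1 mock, TAp63 and deltaNp63 cells and at most 0.313 TPM as a group mean in PANC-1. ST3GAL5, encoding the sialyltransferase that makes ganglioside GM3, had means of 73.5, 55.2 and 54.2 TPM in AsPC-1 and 4.36, 4.51 and 5.16 TPM in PANC-1. The points share 2 replicates per group and 12 libraries in all.

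The transcripts behind the gene values also differed by line for PLAUR. The main transcript, ENST00000340093, made up 87.9% to 90.5% of PLAUR TPM in AsPC-1 and 67.8% to 72.7% in PANC-1. ENST00000339082 made up 4.29% to 5.95% in AsPC-1 and 19.9% to 23.9% in PANC-1. On chromosome 19, minus strand, the former ends at 43648579 and the latter at 43646095, so that they have different annotated 3′ ends. Between the mock cells the first differed by -4.37 (adjusted p = 1.26e-07) and the second by -2.09 (adjusted p = 1.02e-05) when limma was run on transcript rows. Their unequal difference was not tested as such, and how reads were assigned to transcripts is not given in the sources used here. MMP2 in PANC-1 was split over ENST00000219070 (44.6% to 58.8%), ENST00000437642 (20.0% to 32.2%) and ENST00000570283 (16.5% to 21.7%). MMP7 came from 1 transcript for at least 99.3% in AsPC-1, and PLAU from 1 for 90.8% to 93.5% in all libraries.

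**Figure D4:**
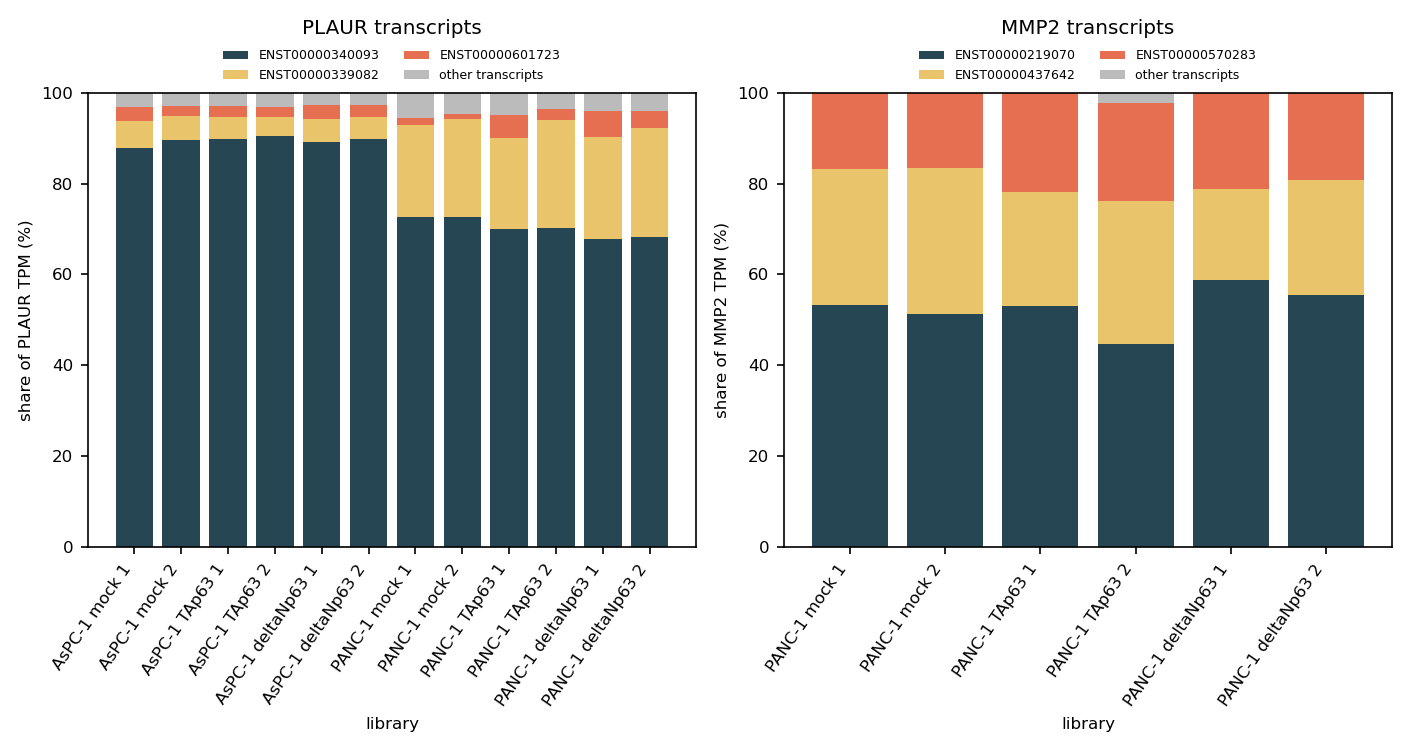
Share of PLAUR TPM (all 12 libraries) and of MMP2 TPM (the 6 PANC-1 libraries) held by each of the 3 most abundant transcripts and by the others, in percent. The share of ENST00000339082 in PLAUR is 4.29% to 5.95% in AsPC-1 and 19.9% to 23.9% in PANC-1.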

How the data were processed

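RNA from 12 libraries was measured after column extraction and stranded poly(A) library preparation, per the labels' protocols. The authors deposited TPM values for 153329 Ensembl transcripts, and each column adds up to 1000000. The quantifier, genome build and annotation are not given in the sources used here. Depth is therefore unknown, and precision comes from 2 replicates per group. Transcripts were paired with genes through GENCODE v44, which matched 139819 rows (91.2%, 89.6% to 90.5% of TPM), and summed to 39099 genes. MMP1, MMP2, MMP9, TIMP1, TIMP2, PLAU and PLAUR overlap other annotated genes, so their reads could be shared.

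The 14767 genes that reached 1 TPM in 2 or more libraries were tested on log2(TPM + 1) with limma 3.58.1 in R 4.3.3 (data.table, version 1.17.8), with 1 mean per group, eBayes with trend and 6 residual degrees of freedom. P-values are two-sided, adjusted by Benjamini-Hochberg within each of 9 contrasts, with a threshold of 0.05. The test was tried on simulated data. For named genes that reached 1 TPM in 2 or more libraries of 1 line only, levels are given in place of a test between lines. Fold changes on this scale understate changes of low genes.

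The members, the pathway list, the transcription factor list and the cell type markers were chosen with earlier results of these data known. All members were named. Pathway genes were named if called with a construct, among the 6 largest differences between mock cells, or if they belonged to a short set that included SERPINE2, SERPINB2, PLAT, a TIMP or RECK. A result for 1 further gene is not reported here. Transcription factors were named if called with a construct, and the 2 closest profiles of a called member were added. MMP3, MMP10, CD68, LYZ, KRT8, KRT18, KRT19, EPCAM, CDH1, PTPRC, LUM, COL1A1 and ST14's replicate values were picked after their values were seen.

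Alternatives were limma without trend, quantile normalization, median centring, no filter, a mean of at least 5 TPM, a pseudocount of 0.1, only the groups or the line compared, a replicate block, transcript rows and leaving out each library. Promoter sequences are from RefSeq on GRCh38.p14.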

Additional observations from a re-analysis of the deposited data

Results flagged for a closer look

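The change of MMP7 with deltaNp63 differed between the cell lines by a test of that difference: PANC-1 minus AsPC-1 gave 0.72 on the log2(TPM + 1) scale (95% interval 0.44 to 1.00, adjusted p = 0.0399, limma). The change was -0.52 in AsPC-1 and 0.20 in PANC-1. MMP7 stood at 294 to 456 TPM in AsPC-1 and at 3.41 to 4.36 TPM in PANC-1, so the PANC-1 change is one of less than 1 TPM. Over 21 alternatives the difference was 0.53 to 0.80 (adjusted p = 0.0107 to 0.244), and it was called in 5 of them. The call was lost without trend (adjusted p = 0.0702), after median centring (adjusted p = 0.166), with the replicate block (adjusted p = 0.0659), with only the groups compared (adjusted p = 0.179), on transcript rows (adjusted p = 0.244) and without any 1 library other than AsPC-1 deltaNp63 replicate 2.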

How the results depend on the processing

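Across the alternatives, 31 changes of named genes were recomputed 670 times in all, and 543 kept both their direction and their side of the threshold. 111 kept the direction and lost the call, most of them for CTSL, HPSE, SNAI2, ETV4, FURIN and the MMP7 difference between lines, 10 gained a call and 6 changed sign. Median centring shifts the changes of all genes in a comparison by the same amount, and changes near 0 that took the other sign with that shift were MMP7 in AsPC-1, TAp63 against deltaNp63 (-0.026), and TIMP1 (0.023) and TIMP2 (0.0069) with deltaNp63 in AsPC-1. The sign changes from leaving out 1 library, given as ranges over all 12, were MMP7 with TAp63 in PANC-1 (-0.0089 to 0.14), MMP1 with deltaNp63 in AsPC-1 (-0.44 to 0.80) and PLAU with deltaNp63 in AsPC-1 (-0.042 to 0.61).

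The count of the 9 genes called with TAp63 in AsPC-1, 0, became 1 with a mean of at least 5 TPM and was 0 to 1 with a library left out. The count with deltaNp63 in AsPC-1, 1, became 0 after median centring, 0 with only the groups compared, 0 with only the 6 libraries of the line and 0 on transcript rows, and was 0 to 4 with a library left out. TAp63 against deltaNp63 in AsPC-1, 0, was 0 to 1 with a library left out. The difference between lines for deltaNp63, 1, became 0 without trend, 0 after median centring, 0 with only the groups compared and 0 on transcript rows, and was 0 to 2 with a library left out. The count for the mock cells, 6 with MMP2 and MMP9, stayed between 5 and 7. The counts of 0 in PANC-1 and for the TAp63 difference between lines stayed at 0 in every alternative. The 3 pathway genes called with deltaNp63 in AsPC-1 became 1 without trend, 0 after quantile normalization, 1 after median centring, 0 with no filter, 6 with a mean of at least 5 TPM, 0 with only the groups compared, 0 with only the 6 libraries of the line and 0 on transcript rows, and were 0 to 8 with a library left out. With a library left out, pathway counts were 0 to 1 for TAp63 in AsPC-1, 0 to 7 for TAp63 against deltaNp63 in AsPC-1 and 0 to 7 for the deltaNp63 difference between lines, the upper ends of the last pair without AsPC-1 deltaNp63 replicate 2, where 6.94% and 14.9% of all tested genes were called. The share of all tested genes called with deltaNp63 in AsPC-1 moved too, from 7.14% to 4.79% without trend, 1.35% after quantile normalization and 2.84% after median centring. It was 0.824% with no filter and 15.3% with a mean of at least 5 TPM. With only the groups compared it was 0%, and with only the 6 libraries of the line 0.0542%. Of 47437 transcript rows, 135 were called. The cause of the moved counts was not tested. Where a group was left with 1 library, that library is assumed to vary like the other groups. TPM keeps no read depth, so what depth limits is not known.

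The labels number the replicates but do not say that a number marks a shared culture or day, so the pairing is not taken as given. Deviations of same-numbered libraries correlated at 0.0991, -0.0945 and 0.293 between the AsPC-1 groups and at 0.0223, 0.112 and -0.0431 between the PANC-1 groups. With the replicate number as a block within each line, 2 of the 9 genes (MMP7, adjusted p = 0.0241, and MMP14, adjusted p = 0.0488, both lower) and 7 pathway genes were called with deltaNp63 in AsPC-1, where the block raised the calls over all tested genes from 1055 to 1633 (11.1%), and 0 of the 9 for the deltaNp63 difference between lines, where MMP7 kept 0.72 (adjusted p = 0.0659). The block changed no other count of the 9 genes.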
